A study of Mus musculus with 4 samples.

Results

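The 10 genes of the growth hormone and insulin-like growth factor (IGF) axis described here were 10 of 19938 genes with 1 symbol measured on 4 mouse arrays. They are Ghr, Socs2, Igf1, Igf1r, Igfbp2, Igfbp3, Igfbp4, Igfbp5, Igfbp6 and Igfbp7. The list was proposed with the MPN against control differences of these arrays in view, so the members were chosen by the measured values themselves and those differences are given as a description, with no test. Each gene is represented by the probe set with the highest mean over the 4 arrays.

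Growth hormone binds its receptor on target cells and signals through the kinase JAK2 and the transcription factor STAT5. Among the best known outputs of that signal are IGF1, a growth factor, and SOCS2, an inhibitor that damps the same receptor. IGF1 acts through the IGF1 receptor, and secreted IGF binding proteins hold it in blood and matrix, lengthen its life or keep it from the receptor. In bone, osteoblasts and stromal cells make IGF1 and several of the binding proteins, which are known regulators of bone growth.

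The study concerned nerve damage in the marrow niche of blood stem cells in myeloproliferative neoplasm (MPN). The cells were sorted from bone marrow of C57BL/6 mice as CD45-, CD31- and Ter119-negative and Nes-GFP-positive, where the reporter marks cells in which the nestin promoter is active. Samples were taken 10 weeks after transplantation. In the MPN group (n = 3 mice) the hosts had received marrow with Mx1-cre, an interferon-inducible recombinase, and JAK2-V617F, the mutant kinase found in this disease, and the genotype is given as Nes-gfp;Mx1-cre;JAK2-V617F. The control group is 1 mouse, genotype Nes-gfp, which had received control marrow. All groups thus share the Nes-gfp reporter and a transplantation. Whether the control marrow carried Mx1-cre, and how old the mice were, is not given in the sources used here. Deposited values are RMA expression levels on a log2 scale, where a difference of 1 is a factor of 2.

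With 1 control mouse, the spread of the control group is unknown. Over all genes the median difference, MPN minus control, was 0.18, and olfactory and vomeronasal receptor genes, used to mark background, had a median difference of 0.25. The differences below are as deposited and are to be read against these shifts. The 95th percentile of the mean of those receptor genes, 5.21, served as a background limit. Nes itself was at 4.56, 3.92 and 4.26 in MPN mice 1, 2 and 3 and at 4.26 in the control mouse, under the limit in each. Marker genes of several cell types differed between the groups. Of 14 perivascular stromal markers, 12 were at least 2-fold lower on each MPN array and 0 were at least 2-fold higher; their summed linear level was 999.5 to 1870 in the MPN mice and 12469 in the control mouse. Of 9 osteoblast markers measured, 7 were at least 2-fold lower, with sums of 1027 to 2888 against 10353. Of 12 pan-leukocyte markers, 8 were at least 2-fold higher, with sums of 9586 to 14256 against 2119. Of 18 neutrophil markers 14 were, with sums of 31777 to 46562 against 9328. Their part in the values below was not tested. In bulk RNA, fewer cells of a type and less RNA per cell cannot be told apart.

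**Figure D1:**
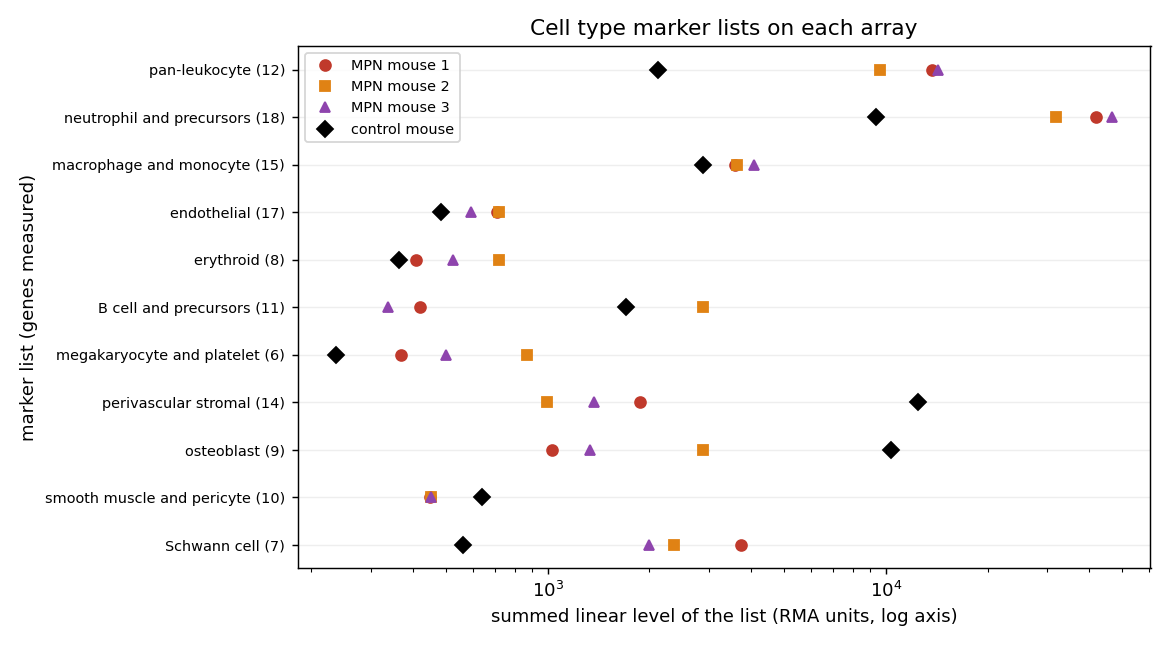
Summed linear RMA level of 11 marker lists (horizontal log axis), with 1 symbol for each of the 3 MPN mice and a diamond for the control mouse. The perivascular stromal sum is 12469 in the control and at most 1870 in an MPN mouse, and the pan-leukocyte sum is 2119 in the control and at least 9586 in an MPN mouse.

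Ghr, Igf1, Igfbp7 and Igfbp5 had the largest differences of the 10 genes, with lower levels in MPN, whereas Igf1r, Igfbp6 and Igfbp2 lay close to the control. Of the 10 genes, 7 were lower by 2-fold or more in every MPN mouse, a size reached by 5.78% of all genes. At least 2-fold higher on each were 0, against 1.13% of all genes. Among the 11966 genes above the background limit in either group, as all 10 were, these shares were 9.36% and 1.85%. By 4-fold or more, 3 were lower in every MPN mouse (1.81% of all genes) and 0 higher (0.321%), and by 1.5-fold or more 7 were lower (9.86%) and 0 higher (3.20%). In the same 7 genes all MPN arrays lay below the control (21.1% of all genes), and in 1, Igfbp2, all lay above it (46.8% of all genes). The list was drawn up on this contrast, so nothing is read from these counts. The 7 were Ghr, Igf1, Socs2, Igfbp3, Igfbp4, Igfbp5 and Igfbp7, and the other 3 were Igf1r, Igfbp2 and Igfbp6. The median difference over the 10 was -1.95, against 0.18 over all genes.

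Ghr encodes the growth hormone receptor. Its level was 4.85, 4.39 and 4.40 in MPN mice 1, 2 and 3, with the control mouse at 9.44. The MPN mean was 4.55 ± 0.26 (SD, n = 3), a log2 difference of -4.89. All 3 MPN mice were under the background limit, while the control mouse was far above it and the groups did not overlap. Set against the limit instead of the measured mean, the control level was at least 18.8-fold higher.

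Socs2 encodes the feedback inhibitor of growth hormone signalling. It was at 5.75, 5.86 and 5.93 in MPN mice 1, 2 and 3, with the control mouse at 7.47. The mean of 5.85 ± 0.09 (SD, n = 3) gave a difference of -1.62, or 3.08-fold lower. The MPN mice lay within 0.18 of each other, all below the control but above the background limit. A further Socs2 probe set, at 4.602, 4.645 and 4.170 against 6.015, differed by -1.54. Its MPN values were all under the background limit, which limits the size of that difference.

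Igf1 encodes the growth factor itself. Its level was 4.99, 4.89 and 4.79 in MPN mice 1, 2 and 3, with the control mouse at 8.25. The mean was 4.89 ± 0.10 (SD, n = 3) and the difference -3.35. As with Ghr, the 3 MPN mice were under the background limit and the control was not, which puts the control at least 8.23-fold higher. Macrophages are another known source of Igf1. Of 15 macrophage and monocyte markers measured, 2 were at least 2-fold lower and 2 at least 2-fold higher on each MPN array, with sums of 3590 to 4083 against 2879. The lower ones were Vcam1 (-3.74), which is also a stromal marker, and Mertk (-2.25), a receptor for dying cells on macrophages, which was under the background limit in every MPN mouse and at 6.79 in the control. The higher ones were Lyz2 (3.61) and Ccr2 (3.49), genes of monocytes and other myeloid cells. Their part in the Igf1 difference was not tested. Adgre1, Mrc1, Cd163 and Spic, markers of resident macrophages, were under the background limit on all 4 arrays. Cd68, Cx3cr1, Fcgr1, Vcam1 and Lyz2 were above it on all 4, and the rest on some.

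Igf1r, the receptor for IGF1, stood apart from its ligand. It was at 6.12, 5.14 and 6.41 in MPN mice 1, 2 and 3, with the control mouse at 5.93. The control lay inside the MPN range, below mice 1 and 3 and above mouse 2. The difference of -0.04 was small beside the SD of 0.66 (n = 3), and its sign depended on the mice included: leaving out mouse 3 gave -0.30 and leaving out mouse 2 gave 0.33.

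**Figure D2:**
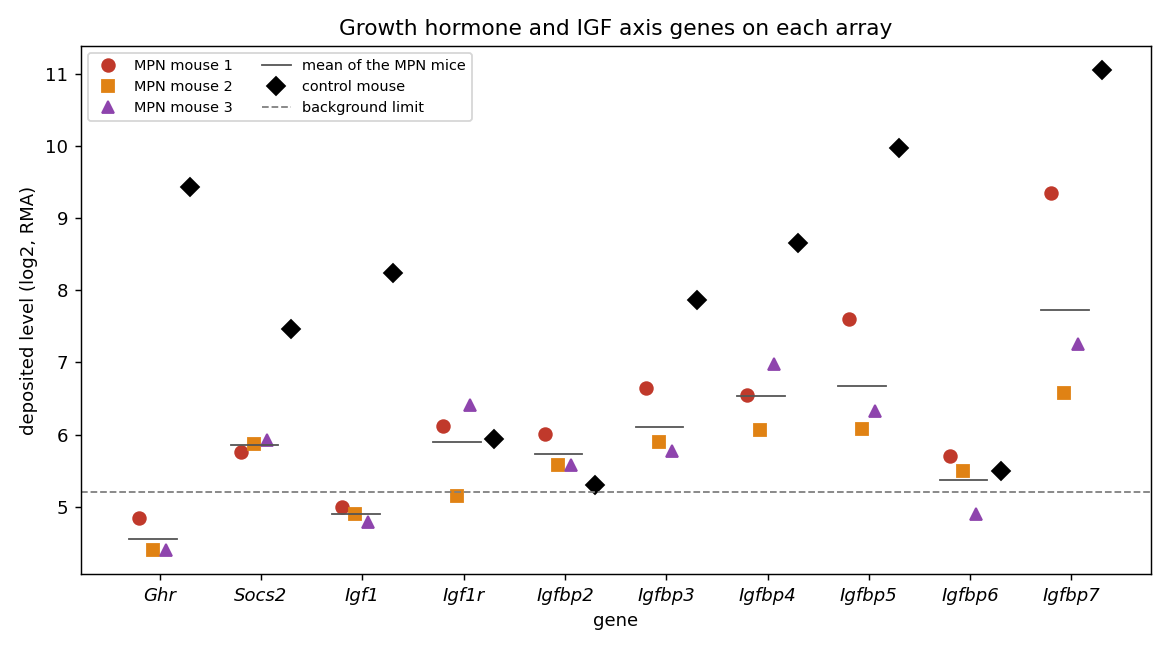
Deposited log2 level of the 10 genes (vertical axis) on each array, with coloured symbols for the 3 MPN mice, a short line for their mean and a black diamond for the control mouse; the dashed line is the background limit of 5.21. Ghr and Igf1 lie under the limit in every MPN mouse and at 9.44 and 8.25 in the control, while the control lies among the MPN mice for Igf1r and Igfbp6.

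The binding proteins split into 4 that were lower and 2 that were not. Igfbp5, a binding protein stored in bone matrix, was at 7.61, 6.08 and 6.33 in MPN mice 1, 2 and 3, with the control mouse at 9.98. The mean of 6.67 ± 0.82 (SD, n = 3) gave a difference of -3.31, or 9.92-fold lower. Mouse 1 was the highest of the MPN mice, by more than 1 log2 unit, and still below the control.

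Igfbp7, a secreted protein of matrix and vessel walls that binds IGF weakly, was at 9.35, 6.57 and 7.25 on the MPN arrays. The control array was at 11.06. The mean was 7.72 ± 1.45 (SD, n = 3) and the difference -3.33. Mouse 1 was again the highest and closest to the control, with a difference of -1.71 against -4.49 in mouse 2 and -3.81 in mouse 3. Without MPN mouse 1 the difference was -4.15.

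Igfbp4, a binding protein that restrains IGF until a protease cuts it, was at 6.55, 6.07 and 6.98 in MPN mice 1, 2 and 3, with the control mouse at 8.66. The mean was 6.53 ± 0.46 (SD, n = 3) and the difference -2.13, or 4.37-fold lower. Here mouse 3 was the highest of the MPN mice.

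Igfbp3, the main carrier of IGF in blood, was at 6.65, 5.90 and 5.77 in MPN mice 1, 2 and 3, with the control mouse at 7.87. The mean was 6.10 ± 0.47 (SD, n = 3) and the difference -1.76, or 3.40-fold lower. The smallest gap was that of mouse 1, at -1.22. After repeated quantile normalisation the gene no longer reached 2-fold on each array. Endothelial cells are a known source of Igfbp3 and Igfbp7. Of 17 endothelial markers measured, 0 were at least 2-fold lower or at least 2-fold higher on each MPN array, with sums of 593 to 719 against 484. On single MPN arrays some passed 2-fold, such as Sox17 in mouse 1 (5.41 against 4.30) and Pecam1 in mouse 2 (6.04 against 4.97). Of these, Kdr, Flt4, Tek and Emcn were under the background limit on all 4 arrays. Vwf, Stab2 and Eng were above it on all 4, and the rest on some.

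Igfbp2, a binding protein that carries an integrin-binding site, was at 6.01, 5.58 and 5.58 in MPN mice 1, 2 and 3, with the control mouse at 5.30. All 3 MPN mice were above the control, with a mean of 5.72 ± 0.25 (SD, n = 3) and a difference of 0.43. The control was just over the background limit. Among the receptor genes that mark background, 22.2% had a difference at least as high, and over all genes 24.3% did.

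Igfbp6, the binding protein that prefers IGF2 over IGF1, was at 5.70, 5.49 and 4.90 in MPN mice 1, 2 and 3, with the control mouse at 5.49. Mouse 2 and the control had the same deposited value, mouse 1 lay above them and mouse 3 below. The mean was 5.36 ± 0.42 (SD, n = 3), and the difference of -0.13 was smaller than that SD.

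**Figure D3:**
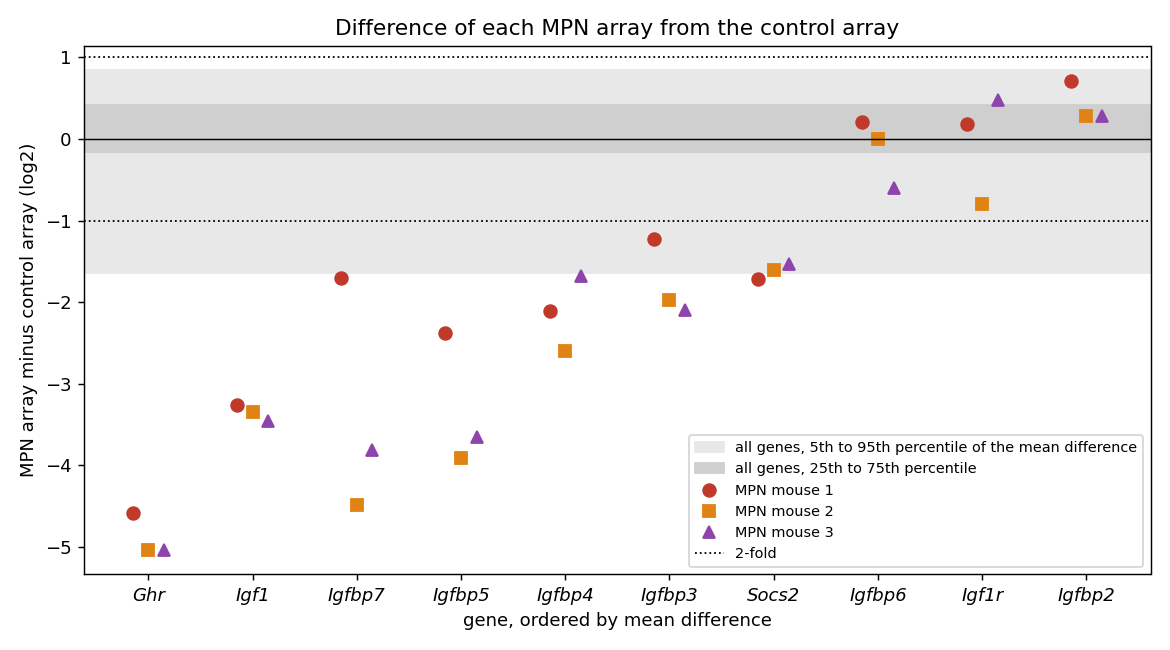
Log2 difference of each MPN array from the control array for the 10 genes, ordered by their mean; grey bands hold the middle of the mean differences of all 19938 genes, and dotted lines mark 2-fold. In all, 7 genes lie below the lower dotted line on each array, from Ghr at -4.89 to Socs2 at -1.62, and Igfbp6, Igf1r and Igfbp2 lie between the lines.

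The promoter windows of the genes with the largest differences, and of Igfbp2, which was not lower, are shown to set the sequences of lowered and other members side by side. Each runs 5′ to 3′ on the gene's strand from 250 bases before to 50 bases after a RefSeq start (GRCm38.p6). Capitals mark the letters GGGCGG (a GC box), CCAAT or TATAAA on either strand; a match on the other strand appears as its reverse complement.
Ghr promoter window, chr15:3583303-3583602, minus strand: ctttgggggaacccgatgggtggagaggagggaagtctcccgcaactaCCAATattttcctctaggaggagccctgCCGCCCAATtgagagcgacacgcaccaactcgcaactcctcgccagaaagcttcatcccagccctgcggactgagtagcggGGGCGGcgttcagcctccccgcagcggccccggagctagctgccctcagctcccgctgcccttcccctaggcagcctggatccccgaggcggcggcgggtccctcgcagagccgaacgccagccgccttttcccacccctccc
Igf1 promoter window, chr10:87860861-87861160, plus strand: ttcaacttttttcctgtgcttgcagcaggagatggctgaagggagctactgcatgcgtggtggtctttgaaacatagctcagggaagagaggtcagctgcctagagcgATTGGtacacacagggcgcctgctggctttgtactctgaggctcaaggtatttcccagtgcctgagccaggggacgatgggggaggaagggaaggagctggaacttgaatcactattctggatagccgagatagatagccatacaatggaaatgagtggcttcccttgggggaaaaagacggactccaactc
Igfbp7 promoter window, chr5:77407996-77408295, minus strand: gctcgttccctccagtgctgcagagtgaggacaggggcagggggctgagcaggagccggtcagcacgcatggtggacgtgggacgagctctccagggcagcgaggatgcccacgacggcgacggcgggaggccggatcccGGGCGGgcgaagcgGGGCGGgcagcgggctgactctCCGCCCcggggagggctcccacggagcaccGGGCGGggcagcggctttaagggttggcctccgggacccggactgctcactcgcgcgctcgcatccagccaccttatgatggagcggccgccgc
Igfbp5 promoter window, chr1:72874816-72875115, minus strand: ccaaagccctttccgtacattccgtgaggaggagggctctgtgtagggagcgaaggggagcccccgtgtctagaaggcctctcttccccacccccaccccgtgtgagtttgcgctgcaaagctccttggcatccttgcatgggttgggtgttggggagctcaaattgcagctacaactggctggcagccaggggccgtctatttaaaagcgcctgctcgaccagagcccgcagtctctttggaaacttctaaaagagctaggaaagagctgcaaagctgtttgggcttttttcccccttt
Igfbp2 promoter window, chr1:72824230-72824529, plus strand: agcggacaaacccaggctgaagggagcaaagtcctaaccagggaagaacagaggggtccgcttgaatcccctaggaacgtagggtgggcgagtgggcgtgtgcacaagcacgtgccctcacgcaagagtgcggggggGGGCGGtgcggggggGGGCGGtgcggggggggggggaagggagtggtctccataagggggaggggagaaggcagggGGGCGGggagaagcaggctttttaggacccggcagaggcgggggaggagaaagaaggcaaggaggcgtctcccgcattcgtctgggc
Of the 10 genes, 9 (all but Socs2) were matched to the table, with 11 windows. The pattern TTCNNNGAA, the palindrome of STAT5-type sites, was in 0 of the 11 and in 8.30% of all 32851 windows. GGGCGG was found for Ghr, Igf1r, Igfbp2 and Igfbp7 (35.7% of all windows), so among lowered members and others alike. Igfbp7 holds it 4 times, at 110, 96, 74 and 44 bases before the start, and Igfbp2 3 times in the window shown. CCAAT was found for Ghr, Igf1 and Igfbp6 (37.4% of all windows), and TATAAA for another Ghr window, Igfbp4 and Igfbp6 (13.6%). The Igfbp5 window holds none of these. The G and C content of the windows shown ran from 52.3% for Igf1 to 73.3% for Igfbp7, and the median over all windows was 52.7%. These matches describe the letters of these windows only.

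The spread among the MPN mice differed from gene to gene. Their SD was lowest for Socs2 (0.09) and Igf1 (0.10) and highest for Igfbp7 (1.45), Igfbp5 (0.82) and Igf1r (0.66). Among the 1000 genes nearest in MPN mean, the median SD was 0.26 for Socs2, 0.21 for Igf1 and 0.71 for Igfbp7. Socs2 thus stood at percentile 8.5 and Igf1 at 14.8 of their neighbours, Igfbp7 at 81.5 and Igf1r at 86.7. The 3 MPN values of Igf1 are all under the background limit. Mouse 1 had the highest MPN value for 7 of the 10 genes and mouse 3 for the other 3. No share over all genes is given here, so nothing is read from this count. In Igfbp7 and Igfbp5 the order was mouse 1, mouse 3, mouse 2. The perivascular stromal markers had summed levels of 1870, 1374 and 999.5 in that order. Cxcl12, Kitl, Pdgfra, Foxc1, Adipoq and Nes kept this order, and the other stromal markers did not. Lepr and Vcam1 were highest in mouse 3, and Lpl, Ngfr and Il7 in mouse 2. Pdgfrb, Ebf3 and Prrx1 were highest in mouse 1 but lowest in mouse 3. In mice 1, 3 and 2 the osteoblast markers had sums of 1027, 1339 and 2888, so mouse 2 had the highest sum. Much of that sum was Ibsp, at 8.55, 9.34 and 11.04 in these mice. The median osteoblast marker was at 6.48, 6.02 and 6.28, highest in mouse 1. The part of these cell types in the spread was not tested.

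**Figure D4:**
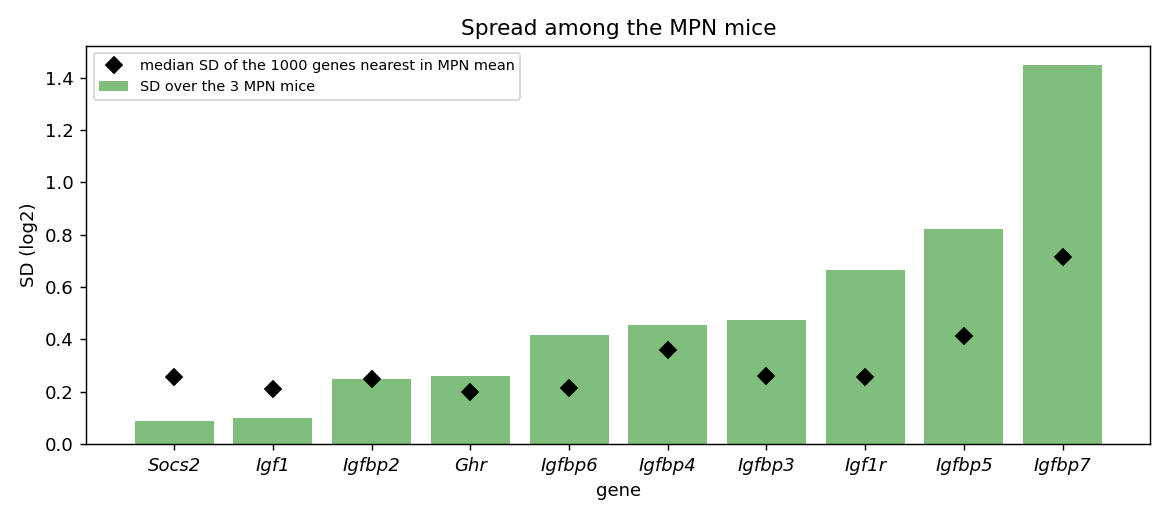
Bars give the SD (log2) of each gene over the 3 MPN mice, and diamonds the median SD of the 1000 genes nearest in MPN mean. Socs2 and Igf1 have an SD of 0.09 and 0.10, under their diamonds, and Igfbp7 has 1.45 against 0.71.

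Candidates were genes other than the members, above the background limit in either group, with predicted and receptor genes left out. Those whose 4 values followed a member most closely were found by the root mean square distance after each gene's own mean was subtracted. For Igf1 these were Phldb2 (distance 0.024), Gsta4 (0.071) and Ctsk (0.096), the last a collagen-degrading protease. For Ghr they were Tmem47 (0.18), Cpe (0.19) and Slitrk6 (0.21). For Igfbp2 they were Armcx6 (0.0091), Cdc42bpg (0.010) and Spink4 (0.019). With only 4 arrays such likeness is a description of these arrays.

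The rest of the pathway was set out in 5 lists, of which 88 of 101 genes were measured and 71 lay above the background limit in either group. They were tested with limma, adjusted over all 19938 genes. The lists were drawn up with earlier results of these arrays known, so their counts and shares are a description and not independent evidence of a direction. At an adjusted p of 0.05, 0 of the 88 passed, lower or higher, as did 0% of all genes in either direction. At an unadjusted p of 0.05, 23 were lower and 1 was higher, or 26.1% and 1.14%, against 8.63% and 3.97% of all genes. At least 2-fold lower on each MPN array were 18 (20.5%, against 5.78% of all genes), and 0 were at least 2-fold higher (against 1.13%). Among all genes above the background limit in either group, these shares were 9.36% lower and 1.85% higher. The perivascular stromal and leukocyte marker values given above apply to these genes too. The test takes the spread of the lone control to be that of the MPN mice.

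Among genes of the receptor's signal, the adaptors and kinase subunits differed widely in size of difference. Insr, the insulin receptor that can pair with the IGF1 receptor, was at 6.16, 4.58 and 6.23 across the MPN mice against 8.83 in the control, a difference of -3.17 (SE 0.84, limma adjusted p = 0.313). MPN mouse 2 was under the background limit for Insr. The other Insr probe set differed by only -0.24, and the average of both by -1.71. Irs1, the adaptor that carries the signal of both receptors, was at 4.69, 4.31 and 4.36 against 8.35. Its difference was -3.90 (SE 0.23, limma adjusted p = 0.0871), and -3.31 as the average of its probe sets. All 3 MPN values were under the background limit, against which the control was at least 8.87-fold higher. Irs2, a related adaptor, was at 6.04, 5.78 and 5.51 against 5.78, so the control lay within the MPN range. Pik3r3, a regulatory subunit of phosphoinositide 3-kinase, was at 4.78, 5.19 and 4.55 against 8.69, a difference of -3.85 (SE 0.32, limma adjusted p = 0.0901). Its MPN values were likewise all under the limit, which puts the control at least 11.2-fold higher. Pik3r1, the more widely used subunit, was at 8.43, 5.38 and 8.02 against 9.55, with mouse 2 far below the others. Insr is counted with the ligands and receptors below. In the signalling list of 27 measured genes, without Insr, 8 were at least 2-fold lower on each MPN array (29.6%, against 5.78% of all genes). The median difference was -0.28.

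Among the carriers and proteases, Pappa, Adamts1 and Mmp2 had differences of -3.98, -3.57 and -2.37. Pappa encodes pappalysin, the protease that cuts IGFBP4. It was at 5.39, 5.56 and 5.17 in MPN mice 1, 2 and 3, with the control mouse at 9.35, a difference of -3.98 (SE 0.23, limma adjusted p = 0.0871). All 3 MPN mice lay near the background limit, and Igfbp4, whose product it cuts, was at -2.13. Adamts1, a matrix protease, was at 5.21, 5.02 and 4.67 against 8.54 (-3.57, SE 0.29, limma adjusted p = 0.0871). Mmp2, a gelatinase, was at 6.21, 6.47 and 6.05 against 8.62 (-2.37, SE 0.24, limma adjusted p = 0.108). Adamts1 was under the background limit in MPN mice 2 and 3 and close to it in mouse 1. Igfbp1, the liver's binding protein, was at 4.88, 4.36 and 4.33 against 4.29, under the limit in both groups. Of the 14 carrier and protease genes measured, 7 were above the limit in a group. At least 2-fold lower on each MPN array were 4 (28.6%, against 5.78% of all genes). With cyclic loess scaling, Pappa, Adamts1, Irs1 and Pik3r3 had limma adjusted p values of 0.0485, 0.0485, 0.0485 and 0.0490, and with the arrays shifted to one median of the receptor genes each had 0.0460 and Mmp2 had 0.0477. Across the scaling, probe set, filter and left-out-mouse alternatives the adjusted p of Pappa, Adamts1, Irs1 and Pik3r3 ran from 0.0460 to 0.454, and a trended, robust variance prior also called these 4 genes.

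The 13 other proteins with an IGFBP-type domain had differences from -3.84 to 0.60. Esm1, endocan, was at 8.66, 5.17 and 7.48 against 10.94, a difference of -3.84 with a wide error (SE 1.58, limma adjusted p = 0.434). Leaving out mouse 1 gave -4.62, and leaving out mouse 2, which was under the background limit, gave -2.87. Htra1, a secreted serine protease, was at 5.07, 4.98 and 4.45 against 7.72 (-2.88, SE 0.33, limma adjusted p = 0.126). Its MPN values were under the limit in all 3 mice, and the control was at least 5.71-fold higher. Ccn1, a matrix signalling protein, was at 7.86, 6.04 and 7.09 against 9.57 (-2.57, SE 0.82, limma adjusted p = 0.383). Of the 13 genes 5 were at least 2-fold lower on each MPN array (38.5%, against 5.78% of all genes).

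The list of the hormone, related receptors and JAK-STAT relays held smaller differences, from -1.68 to 1.42. Stat5a was at 6.29, 6.22 and 6.20 against 5.91, and Stat5b at 5.85, 6.29 and 6.30 against 6.30. Cish, a STAT5-induced inhibitor like Socs2, had the same value, 5.44, in all 3 MPN mice and 5.08 in the control. Such identical MPN values were present in 134 genes, so the tie is not read as low spread among the mice. Jak1 was at 7.21, 7.60 and 8.91 against 9.24, and Jak2 at 6.42, 4.56 and 8.14 against 8.06. Ptpn6, a phosphatase of blood cells that is also on the pan-leukocyte list, was at 8.20, 6.52 and 7.61 against 6.03. In this list 0 of 25 genes were 2-fold apart on each array in either direction, and the median difference was 0.32. Of all genes, 5.78% were lower and 1.13% higher by that rule, so few would be looked for among 25. Igf2, the other IGF ligand, was at 5.80, 5.63 and 5.64 against 5.52, near the background limit. Igf2r, which clears it, was at 5.63, 5.55 and 5.39 against 6.31 (-0.78, SE 0.18, limma adjusted p = 0.270). Rln3, a relaxin ligand, was at 6.17, 6.10 and 5.56 against 5.51. Igf2, Igf2r, Rln3 and Insr belong to the list of IGF and insulin ligands and receptors. Of its 9 measured genes, 1, Insr, was at least 2-fold lower on each MPN array (11.1%, against 5.78% of all genes). At least 2-fold higher were 0 (against 1.13%), and the median difference was 0.21.

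**Figure D5:**
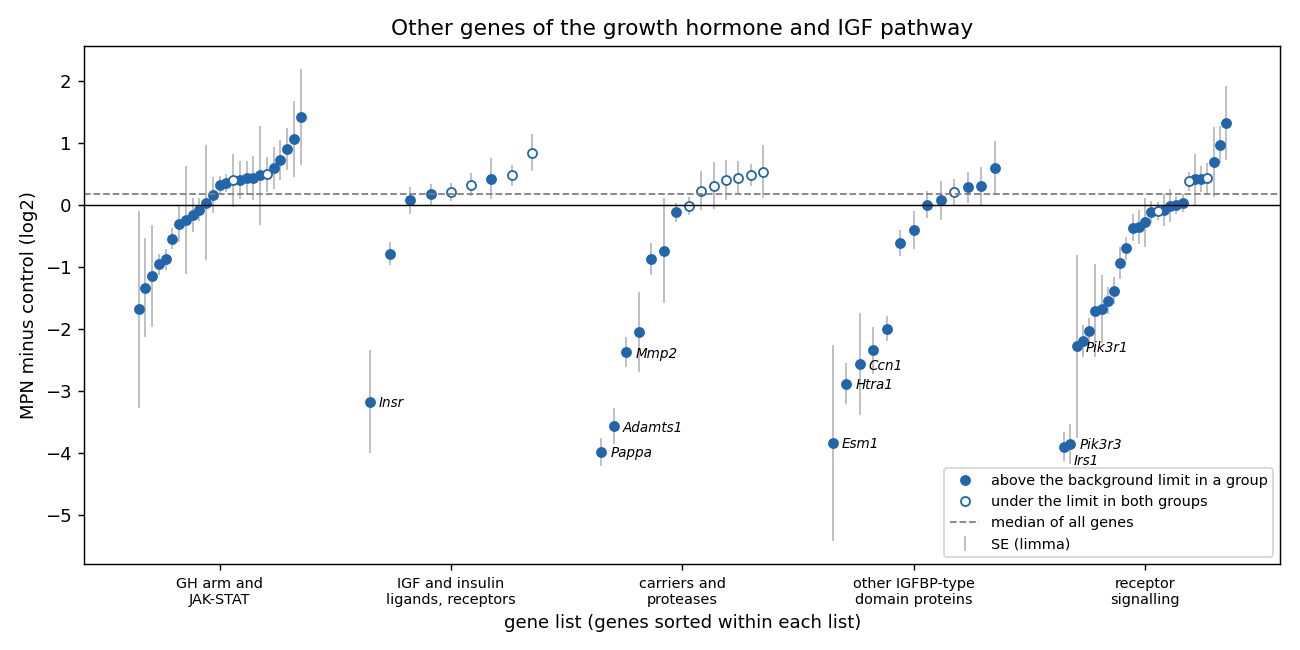
Log2 difference of MPN (n = 3) from control (n = 1) for 88 other pathway genes in 5 lists, sorted within each list; bars are the limma SE, open circles are genes under the background limit in both groups, and the dashed line is the median of all genes (0.18). Pappa, Irs1, Pik3r3 and Adamts1 lie between -3.57 and -3.98 with short bars, and Esm1 at -3.84 has a long one.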

How the data were processed

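Per the labels' protocols and the series' design, RNA (Picopure kit) was amplified by NuGEN Ovation and read on Affymetrix mouse gene arrays. The deposited log2 values were made by the authors with RMA, per the submitters' processing notes, which corrects background, brings the arrays to one distribution and combines probes. Which RMA version, probe set definitions and build were used is not given in the sources used here. Of 35556 probe sets, 21789 have 1 gene symbol in the platform's table, 1621 have several and 12146 are unnamed here; keeping 1 probe set per gene left 19938 genes. Gene identifiers of 21698 matched the RefSeq table and 0 symbols changed. Arrays have no read depth, and their number limits the precision.

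The members and lists were chosen with earlier results of these data known. Members were described without a test. Other pathway genes were tested with limma 3.58.1 under R 4.3.3 (two-sided moderated test from eBayes, Benjamini-Hochberg over all genes, threshold 0.05), with 2 residual and 1.39 prior degrees of freedom. These steps were tested on simulated data. Named pathway genes are the 3 largest differences of each list above the background limit of 5.21 (the 95th percentile of 1194 receptor genes), plus 11 set by name. Marker lists were summed on the linear scale. Alternatives left out each MPN mouse, averaged probe sets, rescaled the arrays, dropped dim genes, changed the variance prior or changed the fold. The searches for a GC box, CCAAT and a TATA box were chosen after seeing the data. No protein sequences were used here.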

Additional observations from a re-analysis of the deposited data

How the results depend on the processing

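No paired analysis was possible because the control group has 1 mouse and its label carries no number. The count of lowered members was 7 without each MPN mouse in turn and under each other scaling, except 6 after repeated quantile normalisation, where Igfbp3 missed. At 4-fold it was 3 (1.81% of all genes). Of 90 recomputed member differences 84 moved by less than the SD of the MPN mice and 6 by more, and 0 of the 7 lowered members changed sign. The 6 were Igf1 at -3.19 (repeated quantile normalisation), -3.49 (cyclic loess) and -3.61 (receptor gene shift), Socs2 at -1.31 and -1.88 (the first and last of these), and Igfbp2 at 0.17 (the last). Igf1r and Igfbp6 changed sign in some settings, within their SD. Among other pathway genes, the count at least 2-fold higher, 0 as reported, ran from 0 to 2 when 1 MPN mouse was left out (2 without MPN mouse 2 or 3) and was 3 at 1.5-fold. The count lower was 8 at 4-fold. The count past adjusted p 0.05 and lower, 0 as reported, was 4 after cyclic loess, 5 after the receptor gene shift and 4 with a trended, robust prior; the cause was not tested. Near-zero differences changed sign for Irs2 (-0.13 to 0.13 when each MPN mouse was left out, 0.065 after repeated quantile normalisation), Stat5b (0.0072, the same setting), Igf2 (-0.084) and Igfbp1 (-0.020), both after the receptor gene shift. Signals near background limit the size of the Ghr, Igf1, Irs1, Pik3r3, Htra1, Pappa and Adamts1 differences. Those of Insr and Esm1 also include a value under the background limit, in MPN mouse 2.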

Other observations

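Igfbp2 and Igfbp5 are neighbours on mouse chromosome 1 in the RefSeq table (GRCm38.p6), with no other protein-coding gene listed between them. Igfbp5 was 9.92-fold lower in MPN, while Igfbp2 had a difference of 0.43. Igfbp1 and Igfbp3 are neighbours in the same way on chromosome 11, where Igfbp3 had a difference of -1.76 and Igfbp1, under the background limit in both groups, one of 0.24.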
